A study of Mus musculus with 65 samples.

Results

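Solute carriers are membrane proteins that move amino acids, sugars, metals, ions, nucleotides and organic acids across the plasma membrane and the membranes of mitochondria, the Golgi and vesicles. They were followed here in 65 single mouse cells labelled as neuronal progenitors. Members were the rows whose gene name starts with Slc and a digit, without Slc1a2, Slc1a3 and Slc2a1, which gave 142 of the 10407 genes measured. The name rule also takes in 4 genes that are named after a transporter without being one: Slc9a3r1 and Slc9a3r2, scaffold proteins that bind exchangers, and Slc4a1ap and Slc7a6os. Grouped by SLC family, under the name of what most of the family carries, the members are 29 mitochondrial carriers, 22 metal ion transporters, 21 nucleotide sugar and Golgi transporters, 17 vitamin, nucleoside, lipid and organic ion transporters, 16 amino acid transporters, 13 ion and acid-base transporters, 9 neurotransmitter and vesicular transporters, 6 sugar transporters and 5 monocarboxylate transporters.

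Apical progenitors line the ventricle of the embryonic brain and divide there to give neurons. Growing cells draw leucine, glutamine and cationic amino acids through the SLC7 and SLC38 families, the former often paired with the heavy chain Slc3a2. SLC25 proteins of the inner mitochondrial membrane exchange ADP for ATP, import phosphate and pass metabolites between matrix and cytosol, and SLC35 proteins carry nucleotide sugars into the Golgi for glycosylation.

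All cells came from CD1 mouse embryos and each gave 1 library. The wild-type groups, both labelled with Flash Tag, hold 20 cells from embryonic day 12 (E12) and 26 from embryonic day 15 (E15). A further 19 cells, called transplanted here, are progenitors of E15 age in an E12 host brain. RNA of each recorded cell was amplified and sequenced (Patch-seq). Flash Tag is a fluorescent dye that marks cells dividing at the ventricle. The questions are how transporter messages differ between progenitors of the 2 ages, and where the transplanted cells stand. No label names an animal, litter or host, so each group is 1 sample, no test between groups was made, and every difference below describes these libraries. Expression is given as CPM, the reads of a gene scaled to the total over the genes measured, after the reads of all cells of a group were added. Parentheses hold exact 95% limits, which cover counting error only, since these PCR reads carry no molecular identifiers. A member is called past the fold when its log2 ratio of CPM + 1 is at least 1 in size (2-fold) and the higher group reaches 5 CPM.

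Depth differed between the groups. E12 cells held 10928 to 1635767 reads, E15 cells 11449 to 4560871 and transplanted cells 22358 to 3622411, and the deepest cell gave 33.1%, 12.2% and 28.5% of the reads of its group. The 20 apical progenitor markers were all read in each group, and summed to 11075 CPM in E12, 8156 CPM in E15 and 8491 CPM in transplanted cells. These sums hide that most of the 20 were lower past 2-fold at E15 than at E12, among them Pax6 (1681 and 289 CPM in E12 and E15) and Lhx2 (1133 and 177 CPM). Fabp7, Mt3 and Ptprz1 were higher past 2-fold. Fabp7 and Dbi gave much of the E15 sum, at 2611 and 2431 CPM. Libraries with more than 8000 detected genes numbered 0 of 20, 11 of 26 and 5 of 19. In E15 these 11 libraries had a median of 2975 CPM of progenitor markers against 24525 CPM in the other 15, and medians of 3273 against 119 CPM for 15 microglia markers and 4463 against 664 CPM for 13 ventral and interneuron markers. In transplanted cells the progenitor and ventral markers stood as in E15, with medians of 3529 against 9708 CPM and 3559 against 729 CPM. The microglia markers stood the other way there, with a median of 30.9 CPM in the 5 libraries above 8000 genes and 460 CPM in the others. Neuron markers, 19 genes, summed to 1551 CPM in E12, 5519 CPM in E15 and 4935 CPM in transplanted cells. Their medians in libraries above 8000 genes and in the others were 6447 and 1553 CPM in E15, and 7910 and 2304 CPM in transplanted cells. Without the libraries above 8000 genes the neuron sums were 3523 CPM in E15 and 2695 CPM in transplanted cells. The 5 erythroid genes measured summed to 2958, 2636 and 15773 CPM, and to 43047 CPM in transplanted cells without the libraries above 8000 genes. The part of these markers in the differences between groups was not tested. The 11 E15 libraries stand apart from the label of their group, so the main counts are given with and without the libraries above 8000 genes. This is also done for some, not all, of the members that rest on them.

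Together the members took 7935 CPM in E12, 6580 CPM in E15 and 6073 CPM in transplanted cells. Per cell the sum ran from 5483 to 12259 CPM in E12 (median 7708), from 2108 to 10637 CPM in E15 (median 6355) and from 3046 to 13508 CPM in transplanted cells (median 6176). The 3 ranges overlap over most of their width. Without the libraries above 8000 genes the sums were 7660 CPM in E15 and 6272 CPM in transplanted cells, so the E15 sum then lay close to that in E12 while the transplanted sum stayed lower. The number of members read per cell went the other way at equal depth. With each cell thinned to 28614 reads, which left 17, 24 and 17 cells, a median of 28 members was read in an E12 cell, 55.5 in an E15 cell and 38 in a transplanted cell. The median number of all genes read in the same cells was 3027, 5221 and 4198. Members made a median of 0.976%, 1.04% and 0.961% of the genes read in these E12, E15 and transplanted cells. Without the libraries above 8000 genes the median was 34 members in 13 E15 cells and 30 in 12 transplanted cells, beside 2932 and 2919 of all genes.

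Between E12 and E15, 33 members were higher and 40 lower past the fold among 140 at 5 CPM, or 23.6% and 28.6%, beside 25.3% and 20.3% of all genes. Their median log2 ratio was -0.16 beside -0.03 for all genes. From E15 to transplanted cells 6 members were higher and 32 lower among 135, or 4.44% and 23.7%, beside 4.71% and 11.8% of all genes, with a median of -0.26 beside -0.08. From E12 to transplanted cells 31 were higher and 57 lower among 134, or 23.1% and 42.5%, beside 22.9% and 24.7% of all genes, with a median of -0.67 beside -0.09. On these sums the share of lower members lay above that of all genes. Without the libraries above 8000 genes the lower share of E15 over E12 was 21.5% of members beside 21.6% of all genes, and within the pools described at the end it was 0.714% beside 3.28%. The 3 comparisons share groups and are not independent. The E12 reads of lower members often lay mainly in 1 cell. For 24 of the 40 lower at E15 and 32 of the 57 lower in transplanted cells, 1 cell had more of them than all other cells together. Members read in under 30% of E12 cells were 21 of the 40 and 29 of the 57. The same shares over all genes are not given here, so these counts are not read as a trait of the members. On the mean of CPM per cell, 23 of the 40, 21 of the 32 and 41 of the 57 stayed past the fold, and without the libraries above 8000 genes 21, 31 and 49 did. These recounts reuse the cells by which the members were chosen and are no separate support.

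**Figure D1:**
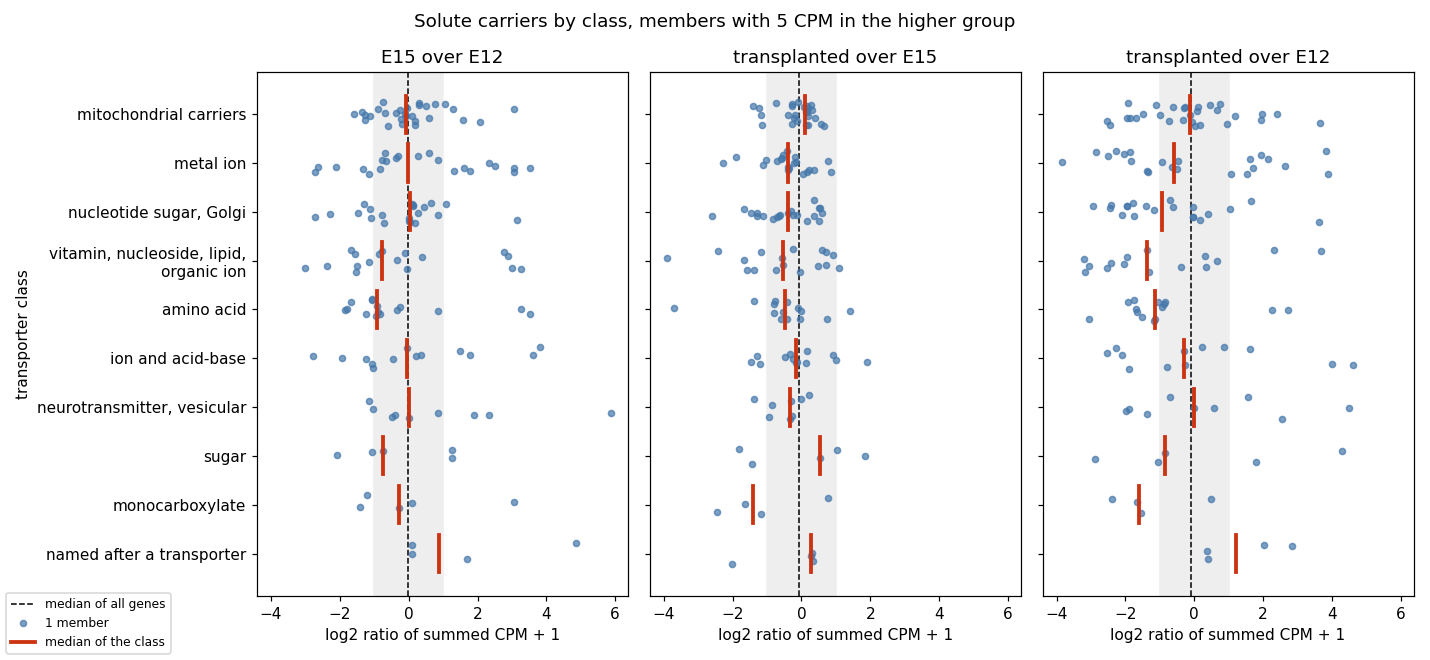
Log2 ratio of summed CPM + 1 (x axis) of each member with 5 CPM in the higher group, by transporter class (y axis), for the 3 comparisons. Each point is 1 member, the red bar the median of the class, the dashed line the median of all genes and the grey band the range under 2-fold. The amino acid class has its median at -0.92 for E15 over E12 and at -1.15 for transplanted over E12, while the mitochondrial carriers have theirs near 0, at -0.08 and -0.11.

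Amino acid transporters had lower summed levels at E15 than at E12 for 12 of 15 members. Past the fold 6 were lower (40%) and 2 higher (13.3%), beside 20.3% and 25.3% of all genes. The median log2 ratio of the class was -0.92, beside -0.03 for all genes. In transplanted cells 12 of 14 were lower than at E12, 9 past the fold (64.3%, beside 24.7% of all genes), with a median of -1.15. The class took 1616 CPM in E12, 861 CPM in E15 and 779 CPM in transplanted cells. Per cell the class had medians of 1290, 871 and 763 CPM and ranges of 13.3 to 5172, 122 to 2256 and 394 to 3989 CPM, so single cells overlapped widely. Without the libraries above 8000 genes 11 of 15 members were lower at E15, with a median of -0.57. On the mean of ratios within pools 4 members had a ratio below 0 at E15 and 7 had one in transplanted cells over E12, where the median of the class was 0.075.

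Slc3a2 (chr19:8706882-8723369 on GRCm38), the heavy chain that carries the SLC7 light chains to the surface, was read in 18 of 20 E12, 22 of 26 E15 and 17 of 19 transplanted cells. Its level per cell ran from 0 to 1016 CPM in E12 (median 418), from 0 to 1024 CPM in E15 (median 253) and from 0 to 3924 CPM in transplanted cells (median 229). Summed levels were 509, 269 and 267 CPM, a log2 ratio of -0.92 at E15 that stayed between -1.04 and -0.79 when any 1 cell was left out. E12 was the highest group on sums and on medians, although on the mean of CPM per cell transplanted cells were level with E12 (log2 ratio 0.05).

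Slc38a2, a sodium-coupled carrier of glutamine and other neutral amino acids, showed the same order. It ranged from 0 to 2252 CPM in E12 (median 322), from 0 to 2146 CPM in E15 (median 226) and from 0 to 475 CPM in transplanted cells (median 148). The log2 ratio was -0.84 at E15 and -0.88 in transplanted cells over E12, both short of the fold. At equal depth it was read in 76.5% of E12, 87.5% of E15 and 82.4% of transplanted cells.

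Slc38a1, another glutamine carrier of that family, was at 261, 111 and 82.1 CPM, which is 2.35 times (2.208 to 2.504) higher in E12 than in E15 and 3.18 times (2.93 to 3.45) higher than in transplanted cells. The cells did not show that order: medians were 58.2, 94.1 and 62.7 CPM, and 1 E12 cell held 31.9% of the E12 reads. In the values as deposited, which lack 2 directions over cells that hold 74.5% of the variance of the number of genes detected, E15 cells were higher by 0.21 on the log10 scale.

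Slc7a5, the large neutral amino acid light chain that takes up leucine, had sums of 92.9, 43.5 and 31.9 CPM. It was read in 11 of 20 E12 cells at up to 824 CPM, in 19 of 26 E15 cells at up to 269 CPM and in 15 of 19 transplanted cells at up to 251 CPM. The median cell had 12.1, 21.3 and 24.7 CPM. E12 therefore stood out by cells with high levels next to 9 cells without a read, and not by its median cell. Slc7a1, a carrier of arginine and lysine, was at 74.7, 20.9 and 35.5 CPM, with 52.6% of the E12 reads in 1 cell, and its log2 ratio at E15 stayed between -2.36 and -0.85 without any 1 cell. It turned to 0.38 without pool A, and the difference of the deposited values was 0.015 on the log10 scale.

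Slc38a7, a lysosomal carrier of glutamine and asparagine, was at 62.7 CPM in E12, 18.9 CPM in E15 and 6.68 CPM in transplanted cells. It was read in only 5 E12 cells (up to 347 CPM), 16 E15 cells (up to 118 CPM) and 5 transplanted cells (up to 16.2 CPM). Slc1a4, a neutral amino acid exchanger that carries serine, followed the same order of sums at 40.9, 21.6 and 11.95 CPM, read in 7, 14 and 8 cells. Slc7a6, a light chain that exchanges cationic for neutral amino acids, ran against its class at 9.31, 17.5 and 48.0 CPM, but 55.7% of the transplanted reads came from 1 cell, and it was read in 9 of 19 of these cells.

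**Figure D2:**
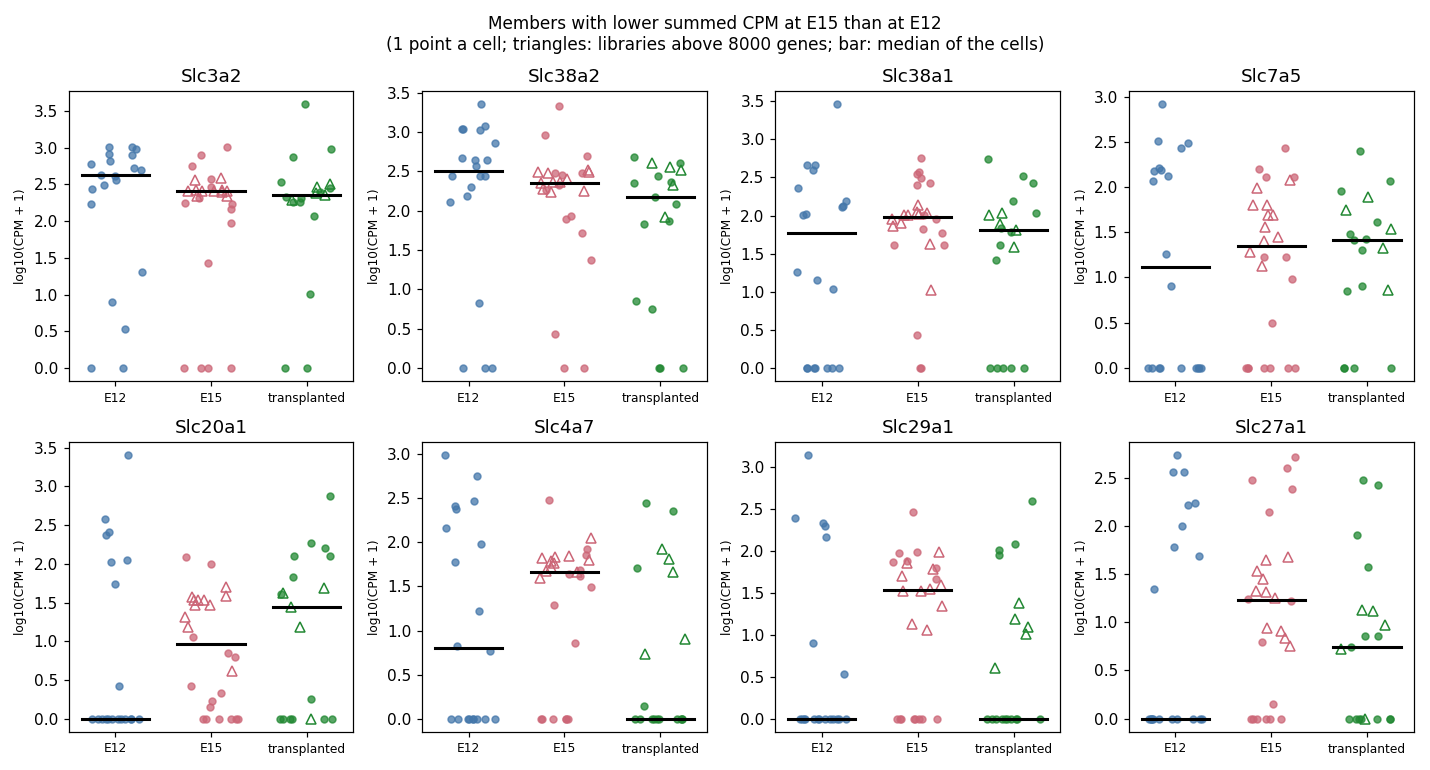
Level per cell, as log10(CPM + 1) on the y axis, of 8 members with lower summed CPM at E15 than at E12, by group on the x axis. Each point is 1 cell, triangles are libraries above 8000 genes and the bar is the median of the cells. Slc3a2 and Slc38a2 are read in most cells of each group with a higher E12 median, whereas Slc20a1, Slc29a1 and Slc27a1 have an E12 median of 0 and a few E12 cells far above it.

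Vitamin, nucleoside, lipid and organic ion transporters were lower at E15 for 12 of 17 members, with a median log2 ratio of -0.78. Past the fold 7 were lower (41.2%) and 4 higher (23.5%), beside 20.3% and 25.3% of all genes. In transplanted cells 9 of 15 were lower (60%) than at E12 past the fold and 2 higher (13.3%), beside 24.7% and 22.9% of all genes. The median there was -1.38. Slc29a1 (chr17:45585200-45599606), the equilibrative nucleoside transporter that takes up adenosine and uridine, was at 150 CPM in E12, 49.5 CPM in E15 and 15.7 CPM in transplanted cells. It was 9.51 times (8.12 to 11.2) higher in E12 than in transplanted cells. Cells ran from 0 to 1389 CPM (median 0), from 0 to 292 CPM (median 32.9) and from 0 to 395 CPM (median 0). So 7 E12 cells carried the E12 sum, while 18 E15 cells shared a lower one, and in the deposited values E15 was higher than E12 by 0.10 on the log10 scale.

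Slc27a1 (chr8:71568882-71587302), a fatty acid transport protein, was at 120, 40.4 and 12.1 CPM and was read in 9, 20 and 11 cells. It was 9.87 times (8.26 to 11.9) higher in E12 than in transplanted cells, and the log2 ratio of -3.20 stayed between -3.63 and -2.85 without any 1 cell. Without the libraries above 8000 genes E15 was at 100 CPM and close to E12, while transplanted cells were at 16.6 CPM. Slc27a4, a second fatty acid transport protein, was at 61.3, 10.9 and 24.3 CPM and was 1 of the 6 members higher in transplanted than in E15 cells, with 1.36 and 49.4 CPM in these 2 groups without the libraries above 8000 genes. Slc22a23, an orphan organic ion transporter, was at 60.7, 20.7 and 14.1 CPM. Slc22a17, a receptor for lipocalin, was the member of the class read in most cells (44 of 65) and did not pass the fold, at 73.0, 94.8 and 91.9 CPM. Slc44a2, a choline transporter, was at 31.2, 13.6 and 11.4 CPM. The folate carrier Slc19a1, at 87.4, 9.95 and 15.4 CPM, and the proton-coupled folate transporter Slc46a1, at 66.6, 20.1 and 7.08 CPM, had 88.7% and 96.4% of their E12 reads in 1 cell, E12 replicate 5 for both.

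Of 13 ion and acid-base transporters, 4 were higher (30.8%) and 5 lower (38.5%) past the fold at E15, beside 25.3% and 20.3% of all genes. The phosphate carriers were among the lower. Slc20a1 (chr2:129198764-129211616), the sodium-phosphate cotransporter PiT-1, was at 174 CPM in E12, 24.4 CPM in E15 and 46.6 CPM in transplanted cells. E12 was 7.16 times (6.52 to 7.87) higher than E15, and the log2 ratio of -2.79 stayed between -3.05 and -1.80 without any 1 cell. Cells ran from 0 to 2557 CPM in E12 (median 0, 8 of 20 cells read), from 0 to 122 CPM in E15 (median 8.24, 20 of 26) and from 0 to 742 CPM in transplanted cells (median 26.8, 12 of 19). Its relative Slc20a2 was at 55.6, 13.8 and 12.3 CPM, 4.03 times (3.46 to 4.67) higher in E12 than in E15. Both are overlapped by other genes on the opposite strand, and whether the counting used strand is not given in the sources used here. The same holds for other members named here, among them Slc29a1, Slc25a46, Slc30a1, Slc30a7, Slc35b4, Slc35e2, Slc32a1 and Slc15a3.

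Slc4a7, a sodium bicarbonate cotransporter, was at 159, 75.3 and 32.1 CPM. It was read in 11 of 20, 20 of 26 and 9 of 19 cells, and without the libraries above 8000 genes the levels were 159, 104 and 6.25 CPM. Slc12a2, the sodium-potassium-chloride cotransporter NKCC1 that loads immature neurons with chloride, was at 28.3, 36.4 and 33.1 CPM, and 92.9% of its E12 reads lay in 1 cell. The potassium-chloride cotransporter Slc12a7 was at 37.6, 15.5 and 5.74 CPM. Slc12a9, an orphan of the same family, had 0 reads in E12, which allows up to 0.607 CPM over the group, against 11.2 CPM in E15 and 23.7 CPM in transplanted cells, at least 18.5-fold and 39.0-fold higher. In the transplanted cells 78.4% of its reads came from 1 cell. In E15 it was read in 10 of the 11 libraries above 8000 genes and in 1 of the other 15.

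Promoter sequence of members is shown next, starting from the 38 members lower past the fold in both comparisons with E12. Both comparisons use the same E12 sum, and for some of the 38, such as Slc19a1 and Slc30a1, most E12 reads lay in 1 cell. The share of all genes lower in both is not given here, so the 38 are not read as a trait of the members. RefSeq promoters on GRCm38.p6 were searched over the 250 bases before each start that RefSeq lists, on both strands for CACGTG, the E-box read by the MYC and MITF families of factors. A gene was counted where the window of any of its starts held the letters. Promoters were at hand for 111 of the 142 members. The letters were present for 9 of 29 of these lower members (31.0%), for 5 of 24 members higher in both comparisons (20.8%), for 18 of 111 members in all (16.2%), for 10.1% of the measured genes with a promoter and for 6.86% of 27025 genes. A second motif, TGATGNAA, the core of the amino acid response element read by ATF4, was found for 0 of the 29 lower members, for 2 of 111 members (1.80%), for 2.26% of the measured genes and for 3.91% of all genes. Of the 12 amino acid transporters with a promoter, Slc7a7 alone held it. A match is a description of letters and was not tested as a binding site, and the motifs were picked after the levels had been seen. The windows below run 5′ to 3′ along the gene, in lower case with CACGTG in capitals, for members described here, the first 5 lower in both comparisons and the last 2 higher in both.
Slc20a1: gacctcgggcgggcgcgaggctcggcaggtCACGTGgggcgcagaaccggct
Slc29a1: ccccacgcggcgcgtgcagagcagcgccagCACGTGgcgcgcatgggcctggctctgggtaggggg
Slc27a1: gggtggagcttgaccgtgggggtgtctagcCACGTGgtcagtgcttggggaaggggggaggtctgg
Slc38a7: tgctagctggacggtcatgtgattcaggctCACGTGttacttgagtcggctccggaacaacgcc
Slc16a1: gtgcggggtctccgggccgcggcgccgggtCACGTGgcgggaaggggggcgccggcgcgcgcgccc
Slc12a9: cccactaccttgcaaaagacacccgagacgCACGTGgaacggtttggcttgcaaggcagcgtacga
Slc25a13: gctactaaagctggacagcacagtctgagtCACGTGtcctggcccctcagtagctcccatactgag
The Slc20a1 window lies at chr2:129198721-129198772 on the plus strand, 22 bases before the start counted from the first base of the motif, and a second match stands 175 bases before it. The Slc29a1 window lies at chr17:45595286-45595351 on the minus strand, the Slc27a1 window at chr8:71570362-71570427 on the plus strand and the Slc38a7 window at chr8:95853492-95853555 on the minus strand. RefSeq lists several starts for Slc29a1 and Slc27a1, and these windows belong to starts inside the gene span printed above, not at its 5′ end. Those of Slc16a1, Slc12a9 and Slc25a13 lie at chr3:104638434-104638499 on the plus strand, chr5:137333653-137333718 on the minus strand and chr6:6217263-6217328 on the minus strand.

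Mitochondrial carriers formed the largest class, and their summed level was nearly the same in the 3 groups. Of 29 members, 5 were higher and 5 lower past the fold at E15 (17.2% each, beside 25.3% and 20.3% of all genes), with a median log2 ratio of -0.08. In transplanted cells over E12 5 were higher (17.2%) and 8 lower (27.6%), beside 22.9% and 24.7% of all genes. The class took 2958, 3100 and 3154 CPM in the 3 groups, with medians per cell of 3336, 2967 and 2742 CPM. Slc25a4 (chr8:46206797-46211284), the ADP/ATP carrier ANT1, was the single member read in all 65 cells. Its cells ran from 21.1 to 2575 CPM in E12 (median 573), from 5.28 to 1873 CPM in E15 (median 921) and from 25.1 to 5627 CPM in transplanted cells (median 1083), and the sums of 659, 988 and 1116 CPM stayed under 2-fold apart. Slc25a3, the mitochondrial phosphate carrier, was read in 63 cells at 463, 530 and 498 CPM, and Slc25a5, a further ADP/ATP carrier, in 62 cells at 254, 271 and 284 CPM. None of these 3 carriers, which serve ATP synthesis, passed the fold in any comparison.

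Other carriers of the class differed. Slc25a46, an outer membrane protein that acts in mitochondrial dynamics, was at 167, 64.4 and 27.9 CPM and was read in 14 of 20, 19 of 26 and 8 of 19 cells. E12 was 5.97 times (5.27 to 6.78) higher than transplanted cells, and 53.9% of its E12 reads lay in 1 cell. In the deposited values it was lower by -0.33 in E15 and -0.58 in transplanted cells than in E12 on the log10 scale. Slc25a10, the dicarboxylate carrier, was at 56.7, 22.7 and 9.67 CPM, and Slc25a53, an orphan, at 55.2, 46.0 and 16.6 CPM. Slc25a23, a calcium-regulated ATP-magnesium/phosphate carrier, was at 70.0 CPM in E12, 31.8 CPM in E15 and 34.8 CPM in transplanted cells. In the other direction Slc25a38, the glycine carrier that feeds haem synthesis, was at 2.83, 31.0 and 46.9 CPM and was read in 4, 15 and 9 cells. On the mean of CPM per cell it was lower at E15 by -0.61 on the log2 scale. Its highest E12 cell stood at 573 CPM. Slc25a13, the aspartate-glutamate carrier citrin, was at 5.67, 27.2 and 34.2 CPM, with 72.9% of the transplanted reads in 1 cell.

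Of 22 metal ion transporters 8 were higher (36.4%) and 5 lower (22.7%) past the fold at E15, beside 25.3% and 20.3% of all genes, with a median of -0.02. In transplanted cells over E12 9 were higher and 9 lower (40.9% each), beside 22.9% and 24.7% of all genes. Slc48a1 (chr15:97778520-97792692), which moves haem out of lysosomes, was at 20.8 CPM in E12, 108 CPM in E15 and 83.0 CPM in transplanted cells. Its cells ran from 0 to 540 CPM (median 0, 5 of 20 read), from 0 to 706 CPM (median 81.1, 22 of 26) and from 0 to 984 CPM (median 49.5, 13 of 19). At equal depth it was read in 11.8% of E12, 75% of E15 and 41.2% of transplanted cells, and without the libraries above 8000 genes the E15 level was 177 CPM. Sum, median and share of cells therefore all placed E12 lowest.

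Zinc transporters stood on both sides. Slc30a9, which exports zinc from mitochondria, was at 28.9, 74.0 and 86.5 CPM with medians of 2.02, 75.3 and 48.4 CPM, and at equal depth was read in 23.5%, 70.8% and 64.7% of cells. On the mean of CPM per cell it did not pass the fold, and transplanted cells were lower than E12 by -0.21 on the log2 scale. The highest E12 cells stood at 863 and 422 CPM. Slc30a6, a Golgi zinc transporter, was at 4.05, 27.9 and 21.4 CPM and was read in 3, 16 and 7 cells. Slc39a3, a zinc importer, was at 13.6, 48.9 and 44.0 CPM, and the E12 reads came from 1 of 20 cells while 15 of 26 E15 and 8 of 19 transplanted cells had it. In E15 it was read in 11 of 11 libraries above 8000 genes and in 4 of the other 15. In transplanted cells these were 5 of 5 and 3 of 14, and E12 has no such library. On the mean of CPM per cell without these libraries its log2 ratio at E15 was -0.22. Slc39a6, a zinc importer of the LIV-1 group, was at 132, 102 and 68.7 CPM and did not pass the fold, and Slc39a11 was at 11.5, 37.2 and 25.2 CPM, though on the mean of CPM per cell E15 was lower by -0.32. Slc30a7 of the secretory pathway was at 64.3, 8.91 and 3.54 CPM and was read in 5, 13 and 4 cells. Slc30a1, the zinc exporter of the plasma membrane, showed how far 1 cell can set a ratio. Its 75.7 CPM in E12 all came from replicate 5, and without that cell the log2 ratio at E15 turned from -2.64 to 3.63. The libraries above 8000 genes held 99.8% of the E15 reads of Slc30a1. Slc39a2 was read in 55 cells at low levels of 23.7, 13.5 and 8.57 CPM, but shares 151 exonic bases on the same strand with Mettl17, so its reads are uncertain.

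Nucleotide sugar and Golgi transporters had a median of 0.04 at E15. Past the fold 2 of 21 were higher (9.52%) and 6 lower (28.6%), beside 25.3% and 20.3% of all genes. In transplanted cells over E12 10 of 20 were lower (50%) past the fold and 3 higher (15%), beside 24.7% and 22.9% of all genes. The median there was -0.94. Slc35b1, which supplies ATP to the endoplasmic reticulum, was read in 52 cells at 149, 148 and 166 CPM. Slc35b2, which carries the sulfate donor PAPS into the Golgi, was at 97.9, 112 and 94.8 CPM. Neither passed the fold in any comparison.

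Slc35f1, an orphan of the family, was lowest in transplanted cells. It was read in 15 of 20 E12 cells (0 to 956 CPM, median 51.8), 24 of 26 E15 cells (0 to 396 CPM, median 35.9) and 9 of 19 transplanted cells (0 to 121 CPM, median 0). Summed levels were 101, 58.4 and 17.8 CPM. E15 was 3.29 times (2.86 to 3.79) higher than transplanted cells, and the log2 ratio of -1.66 stayed between -2.01 and -1.34 without any 1 cell and was -4.00 without the libraries above 8000 genes. The deposited values were lower as well, by -0.40 on the log10 scale. At equal depth it was read in 47.1%, 70.8% and 29.4% of cells. Slc35e2 was at 50.6, 9.47 and 13.9 CPM, with 93% of its E15 reads in the libraries above 8000 genes. Slc35a5 and Slc35b4, at 31.2 and 32.0 CPM in E12, had 70.1% and 92.4% of those reads in 1 cell. Slc35c2, a transporter tied to fucose addition on Notch, was at 40.1, 63.7 and 83.0 CPM.

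Neurotransmitter and vesicular transporters were higher past the fold at E15 for 3 of 9 members (33.3%) and lower for 2 (22.2%), beside 25.3% and 20.3% of all genes. Slc18a2 (chr19:59260896-59296012), the vesicular monoamine transporter VMAT2, was at 0.202 CPM in E12 (1 read in 1 cell), 70.0 CPM in E15 and 26.3 CPM in transplanted cells. All 11 E15 libraries above 8000 genes had it, at 4.60 to 189 CPM (median 76.7), as did 4 of the other 15, and the 11 libraries held 96.5% of its E15 reads. Without them E15 was at 8.35 CPM and lay below the transplanted cells, so the order of these 2 groups turned. Slc32a1, the vesicular carrier of GABA and glycine, named after its values were seen, was at 2.02, 10.2 and 7.86 CPM, and the same 11 libraries held 77.7% of its E15 reads. The ventral and interneuron markers, which include the GABA-synthesising enzymes Gad1 and Gad2, were high in the same libraries, and their part in these results was not tested. Slc6a6, the taurine transporter, was at 69.6, 70.6 and 69.8 CPM on sums, with 92.2% of the E12 reads in 1 cell and 93.4% of the E15 reads in the libraries above 8000 genes. Without those libraries E15 was at 15.9 CPM. Slc6a8, the creatine transporter, was at 46.1, 32.4 and 17.4 CPM with 95.6% of E12 reads in 1 cell.

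**Figure D3:**
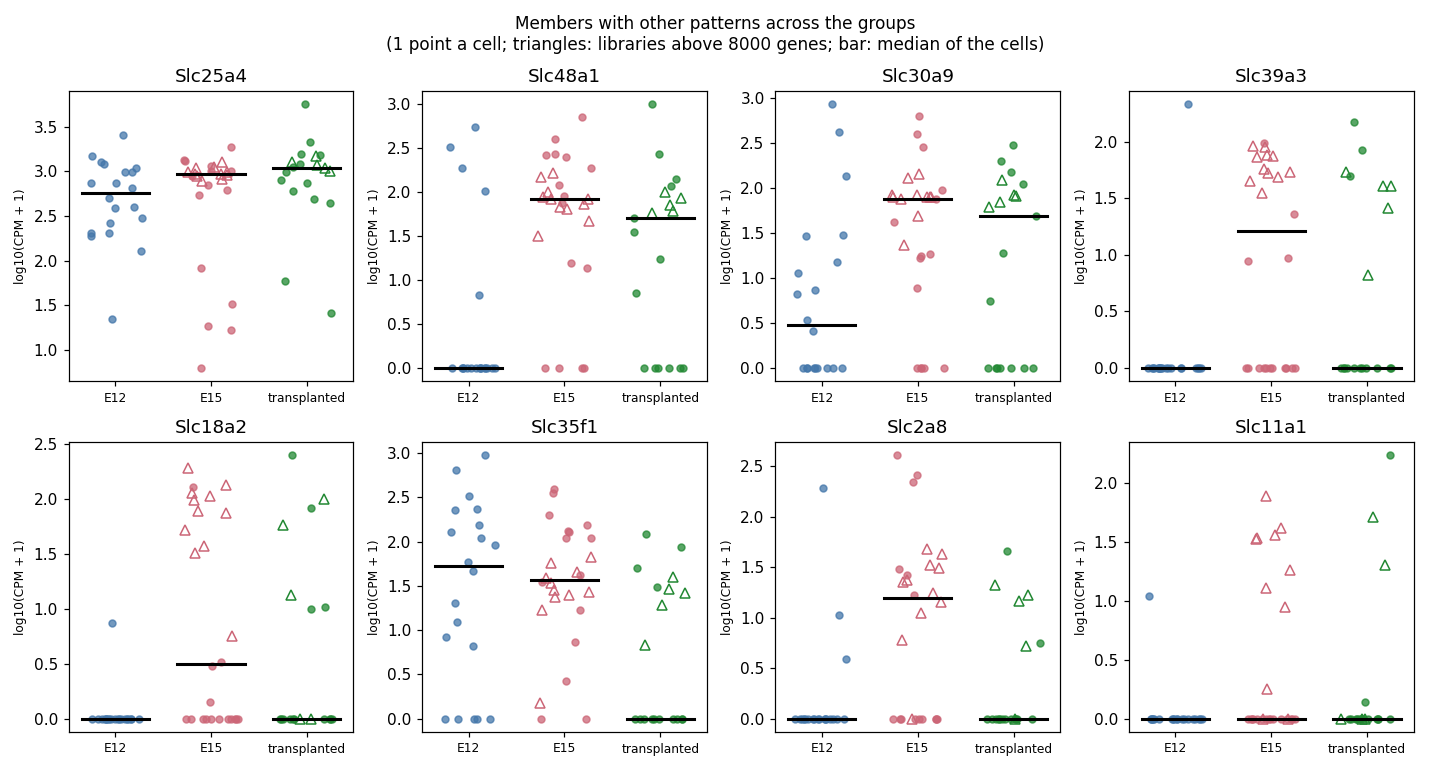
Level per cell, as log10(CPM + 1) on the y axis, of 8 members with other patterns, by group on the x axis. Each point is 1 cell, triangles are libraries above 8000 genes and the bar is the median of the cells. Slc25a4 is read in every cell, Slc48a1, Slc30a9 and Slc39a3 have most E12 cells at 0 or low, Slc35f1 and Slc2a8 have a transplanted median of 0, and Slc18a2 and Slc11a1 are seen in E15 mainly or only in triangles.

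A further 4 members, outside the rule for named genes and chosen after their values were seen, are given singly. Slc11a1, a metal exporter of phagosomes, was at 15.1 CPM in E15, and 9 of the 11 libraries above 8000 genes had it (0 to 77.1 CPM) against 0 of the other 15. Slc37a2, a phosphate-linked sugar phosphate carrier, was at 9.63 CPM in E15 and 0.181 CPM without these libraries. Slc29a3, a lysosomal nucleoside transporter, went from 8.70 to 0.181 CPM, and Slc15a3, a lysosomal peptide transporter, from 5.82 to 0.635 CPM. In E12 these 4 had 0 to 0.405 CPM. In transplanted cells 1 library, replicate 18 with 5075 genes, held 96.0% of the Slc15a3 reads and 58.8% of the Slc11a1 reads of its group, and its 15 microglia markers summed to 8775 CPM. Transplanted replicate 8 had the highest sum of these markers, 26316 CPM, and the highest Slc29a3 level, 401 CPM, with 0 reads of Slc11a1. In E15 replicate 10, with 6962 genes, the markers summed to 8751 CPM, while Slc11a1 was at 0 and Slc15a3 at 1.35 CPM. The part of these markers in the levels of these members was not tested.

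Monocarboxylate transporters move lactate, pyruvate and ketones. Slc16a1, the lactate transporter MCT1, was at 33.2, 13.8 and 5.58 CPM in the 3 groups. Slc16a6 was at 0.405, 10.8 and 1.18 CPM and is overlapped over 1052 exonic bases by Amz2 on the opposite strand. The class is small, and 3 of its 4 members at 5 CPM were lower past the fold in transplanted than in E15 cells, beside 11.8% of all genes.

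Of the sugar transporters, Slc2a8, a glucose transporter of inner membranes, was at 64.95, 30.6 and 7.94 CPM. The log2 ratio of transplanted over E15 cells, -1.82, stayed between -2.23 and -1.47 without any 1 cell, whereas 97.8% of the E12 reads lay in replicate 5. Slc50a1, a small sugar transporter of the SWEET family, was at 10.7, 26.9 and 39.4 CPM and was read in 6, 17 and 7 cells, but at equal depth E15 was below E12 by -0.39 on the log2 scale. Slc5a6, counted here by its family, is itself the sodium-dependent vitamin transporter for biotin and pantothenate and was at 36.2, 7.79 and 16.9 CPM. The libraries above 8000 genes held 99.3% of its E15 reads. The left-out relatives were at 23.5, 2.43 and 20.2 CPM for Slc1a2, 128, 158 and 52.1 CPM for Slc1a3 and 85.8, 16.04 and 9.04 CPM for Slc2a1.

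Among the 32 members lower in transplanted than in E15 cells, 31 also had a lower mean in the deposited values and 31 stayed past the fold without the libraries above 8000 genes. Both recounts reuse the cells by which the 32 were chosen, and the same shares over all genes are not given, so they are no separate support. Without those libraries 55 of 133 members (41.4%) were lower and 28 (21.1%) higher, beside 28% and 18.7% of all genes. On the mean of CPM per cell without these libraries the counts were closer, with 40 members lower (30.1%) and 35 higher (26.3%), beside 25.3% and 22.5% of all genes. Besides Slc35f1 and Slc2a8, lower members included Slc25a53, Slc46a1, Slc25a46, Slc15a2 and Slc9a3r1. Slc15a2, a peptide transporter, was at 26.1 CPM in E15 and 4.09 CPM in transplanted cells, 1 E15 cell held 80.6% of the E15 reads, and without pool E the log2 ratio turned to 0.63. Slc46a1 was at 20.1 and 7.08 CPM, and was read in 15 of 26 and 4 of 19 cells. Slc9a3r1, the scaffold NHERF1, stood at 1.62 CPM in E12, 74.9 CPM in E15 and 17.6 CPM in transplanted cells, read in 1 of 20, 18 of 26 and 5 of 19 cells, with 54.8% of the E15 reads in 1 cell. It was higher in E15, at 217 CPM, without the libraries above 8000 genes. For the urea transporter Slc14a2, at 41.3 CPM in E15 and 1.81 CPM in transplanted cells, 69.0% of the E15 reads came from 1 cell. Near the fold limit, Slc12a9 lay just inside with a log2 ratio of 1.02 and Slc6a15 just outside with -0.95.

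**Figure D4:**
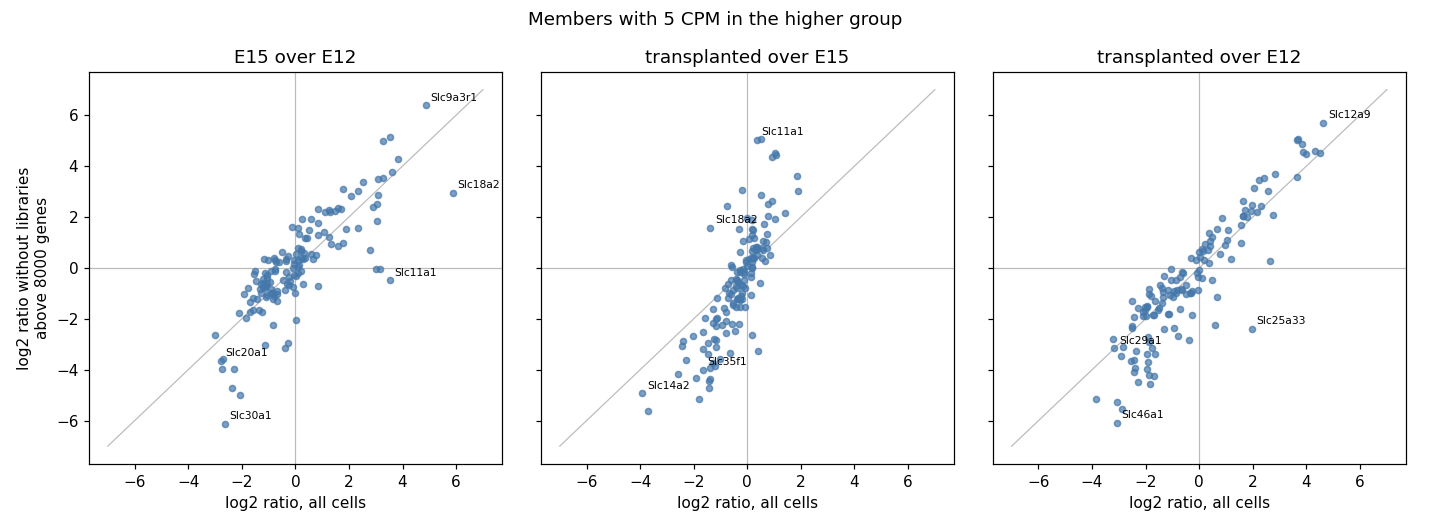
Log2 ratio of each member with 5 CPM in the higher group over all cells (x axis) and without the libraries above 8000 genes (y axis), for the 3 comparisons. Each point is 1 member and the diagonal marks equal ratios. Slc18a2 stays high at E15 but turns from -1.38 to 1.57 in transplanted over E15, and Slc11a1 goes from 3.52 to -0.49 in E15 over E12.

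Genes that work with the solute carriers were read from fixed lists. Of all genes 25.3% were higher and 20.3% lower past the fold at E15, and the counts of these small lists are not read as a trait of the lists. Of 18 other transporter genes, 3 were higher and 3 lower past the fold at E15. Mtch1, a mitochondrial carrier homolog, was at 598, 744 and 864 CPM, and Mpc2, a subunit of the pyruvate carrier, at 270, 386 and 392 CPM, neither past the fold. Mfsd2a, which takes up lipids that carry docosahexaenoic acid, was at 65.6, 60.9 and 7.31 CPM, lowest in transplanted cells. Of 8 partner proteins 3 were lower and 1 higher at E15. Bsg, the chaperone of the lactate transporters, was at 928, 548 and 484 CPM, and Tfrc, the transferrin receptor that brings in iron, at 84.8, 29.0 and 47.1 CPM. Stk39 and Oxsr1, the kinases that act on cation-chloride cotransporters, were at 105, 35.5 and 26.4 CPM and at 61.3, 22.4 and 28.5 CPM, lower past the fold in both comparisons with E12. Of 7 sodium pump subunits, which keep the sodium gradient that many of these carriers use, 1 was higher and 2 lower past the fold at E15, and Atp1b3 was at 78.5, 206 and 166 CPM.

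Pools are a further limit on the ratios above. The labels put cells in 8 pools, A to H, and the mean of ratios taken within pools moved the median log2 ratio of all genes to 1.33 between the wild-type groups, to -0.63 between transplanted and E15 cells and to 0.80 between transplanted and E12 cells. The members' medians moved with it, to 1.41, -0.82 and 0.84. Leaving out any 1 pool kept the median of all genes for E15 over E12 between -0.034 and 0.083. Within a pool 1 side can be a single shallow cell. In pool H the only E12 cell is replicate 3, with 10928 reads, and a gene it did not read enters at 0 CPM. Whether pool, depth or unread genes moved these medians was not tested. Within pools the E15 ratios of Slc20a1 (0.79), Slc38a1 (1.05), Slc29a1 (1.26) and Slc4a7 (1.84) turned above 0, the first 3 of them staying below the median of all genes.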

How the data were processed

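Libraries of single cells were made by Patch-seq with the SMART-Seq v4 3′ DE and Nextera XT kits, per the labels' protocols, and reads were handled with STAR, HTSeq and mm10, per the submitters' processing notes, versions not given in the sources used here. The authors deposited log10 values, 1 table per group, which are residuals: each gene sums to 0 over the 65 cells, and a further 2 directions over cells had been removed. These directions hold 74.5% of the variance of the number of genes detected and 24.2%, 8.81% and 3.31% of that of membership of E12, E15 and transplanted cells. Read counts were therefore recovered, from cells at 0 for 10034 genes and by a search for whole counts for 373. All 356667 non-zero values came within 0.01 of a whole count, and the recovery was tested on simulated data. The files thus held another unit than the counts first assumed. Genes read in fewer than 6 cells are not in the tables.

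Counts were added per group and scaled to CPM. Named members had 20 CPM, reads in 30% of cells of the higher group and a 2-fold difference on sums and on mean CPM that kept its direction without any 1 cell (up to 8 per direction), or were the 3 most detected or the 2 with the largest ratios of a class. Members, lists and the limit of 8000 genes were chosen with earlier results of these data known. Some members that met this rule are not reported here. The lists of Cajal-Retzius and pericyte markers had no gene measured. Alternatives were mean CPM per cell, thinned counts, other scaling factors, pseudocounts and filters, the deposited values, and leaving out cells, pools, shallow libraries or libraries above 8000 genes. Coordinates are those of GRCm38, and promoters were read from RefSeq. Scripts ran under Python 3.11.15 with pandas 2.3.3 for tables, NumPy 2.4.6 and Numba 0.67.0 for the recovery, SciPy 1.17.1 for intervals and Matplotlib 3.10.9 for plots.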

Additional observations from a re-analysis of the deposited data

How the results depend on the processing

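The 9 main counts were recomputed under each alternative, 564 values in all, of which 542 stayed within 1.5 times and 22 moved further. Most of these values come from leaving out a single cell, where only 1 moved, so the total says little about the other alternatives. Within pools 8 of the 9 counts moved. Of 88 ratios of named members, 61 kept their direction under every alternative run and 27 turned under at least 1, 19 of these outside the means within pools. The cause of these moves was not tested. No paired analysis was possible by cell number because these numbers were given in accession order and pair no cells. The E12 and E15 groups share pools A to H, and transplanted cells are in all of these but pool F. The means within pools, given here and in the report, are the blocked values, over pools that hold cells of both groups. With 1 sample a group, depth sets the counting limits and the spread between animals is unknown.

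For E15 over E12, 33 members were higher and 40 lower; within pools these were 89 and 1, 13 were higher with a 20 CPM filter, and 4 amino acid transporters were lower within pools. Without any 1 cell the counts ran from 29 to 39, from 35 to 45 and, for amino acid transporters, from 11 to 12. For transplanted over E15, 6 members were higher; this became 19 on mean CPM, 24 on thinned counts, 3 with a pseudocount of 5 CPM, 28 without libraries above 8000 genes, 35 on mean CPM without them, 2, 10 and 15 without pools A, E and H, and 1 within pools. It ran from 4 to 14 without 1 cell, highest without transplanted replicate 15. The 32 lower members became 21 with that pseudocount, 55 without libraries above 8000 genes, 53 within pools and 16 with a 20 CPM filter, and 25 to 35 without 1 cell; amino acid transporters ran from 10 to 13. For transplanted over E12, 57 were higher within pools and 15 with a 20 CPM filter (29 to 38 without 1 cell), 13 were lower within pools (53 to 61), and 7 amino acid transporters were lower within pools (11 to 12).

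Log2 ratios of E15 over E12 that turned within pools were Slc16a1 1.27, Slc19a1 0.75, Slc20a1 0.79, Slc25a23 1.17, Slc29a1 1.26, Slc30a1 1.86, Slc35b4 0.51, Slc38a1 1.05, Slc38a7 1.73, Slc4a7 1.84 and Slc5a6 0.043. Slc16a1 was 0.45 without pool F, Slc30a1 3.77 without pool E and Slc7a1 0.38 without pool A. On mean CPM Slc25a13 was -0.037 and Slc25a38 -0.61, and on mean CPM without libraries above 8000 genes Slc25a38 was -1.78, Slc39a3 -0.22 and Slc50a1 -0.10, the last also -0.39 on thinned counts. In the deposited log10 values Slc29a1 was 0.10, Slc38a1 0.21, Slc38a7 0.036 and Slc7a1 0.015. Without 1 cell Slc30a1 ran from -2.97 to 3.63 and Slc35b4 from -2.90 to 0.12, both turning without E12 replicate 5.

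For transplanted over E15, Slc15a2 was 0.63 without pool E, and Slc18a2 was 1.57 without libraries above 8000 genes and 1.40 on mean CPM without them. For transplanted over E12 within pools, medians were 0.075 for amino acid, 0.17 for monocarboxylate and 0.95 for vitamin, nucleoside, lipid and organic ion transporters, and single ratios were Slc12a7 0.029, Slc16a1 0.32, Slc2a8 0.51, Slc30a1 1.58, Slc38a1 0.38 and Slc38a7 0.65. The median of the genes named after a transporter was -0.15 on mean CPM without libraries above 8000 genes. In the deposited values Slc15a2 was 0.07, Slc18a2 -0.039, Slc38a1 0.033 and Slc39a3 -0.008. Without pool E Slc2a8 was 1.47 and Slc30a1 3.43, and without 1 cell they ran from -3.30 to 1.52 and from -3.07 to 3.42, turning without E12 replicate 5.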
